A study of Mus musculus with 6 samples.

Results

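The 7 circular RNAs (circRNAs) of the mouse gene Acss3 in a table of 3869 circRNAs were followed through 8 days of adipogenic differentiation of preadipocytes that the labels call brown. A circRNA is a closed loop made when the end of an exon is joined back to the start of an exon that lies before it, and sequencing reads across that back-splice junction count it. Acss3 encodes a short-chain acyl-CoA synthetase, an enzyme that activates short fatty acids such as propionate by joining them to coenzyme A, and in mouse brown fat it has been linked to the breakdown of propionate. Brown adipocytes burn lipid and other fuels to make heat. A circRNA reports on splicing of its host gene, but linear Acss3 RNA was not analysed here.

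The 7 members are all rows of the table that lie wholly within the stretch of chromosome 10 (mm9, minus strand) assigned to Acss3, from 106385712 at the lowest end to 106522007 at the highest. The gene was chosen by its CPM values in this table, because several of its circRNAs were listed at 0 at day 0 and were high at day 8. Levels by day are therefore given as a description without a test. The nearest other circRNAs on chromosome 10 lay far outside the interval. They were mmu_circ_0001919 at 1122 kb below the lowest member and a circRNA with no catalogue identifier at 1155 kb above the highest one. They had means of 48.2 and 167 CPM at day 8, where CPM is the read count scaled to a library sum of 1000000.

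Stromal vascular cells came from 6-week-old C57BL/6 mice, from a depot that the labels call inguinal BAT. Day 0 cells were proliferating preadipocytes. Day 4 cells had spent 4 days in induction medium with insulin, dexamethasone and 3-isobutyl-methylxanthine, and day 8 cells a further 4 days with insulin and T3, a thyroid hormone. Each day had 2 libraries, made from RNA depleted of ribosomal and linear RNA, and the labels do not say whether these came from separate cultures or animals. The brown identity of the cells was not tested, because the table holds circRNAs without host genes.

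Values are CPM of the reads on the listed circRNAs. Within a library every value was a whole multiple of 1 step, taken as 1 read and worth 21.9 to 24.8 CPM. The libraries held 40384 to 45733 such reads. No value was 1 read, so a circRNA listed at 0 may have had 1 read. Each of the 3869 circRNAs was above 0 in both libraries of some day, a selection that favours differences between days for circRNAs with few reads.

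The members joined a small set of exon ends. The mm9 span of 6 of the 7 equalled, to the base, the span of a single pair of exons among the 136 pairs of the annotated transcript Acss3-203 (GENCODE M21, GRCm38, 16 exons). All 21 distances between their 7 distinct ends were also equal to those between the exons. Among the 3862 circRNAs outside the interval, 7 had a span equal to that of some Acss3-203 exon pair. Exon numbers below rest on these matching lengths, and no coordinates were carried from one build to the other. In the GRCm38 annotation the other genes that overlap Acss3 are Ppfia2 and the pseudogene Gm19007 on the plus strand and the pseudogenes Gm18040 and Gm19181 on the minus strand.

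A set of 4 members combined 2 starts with 2 ends. Exons 2 and 3 supplied the starts, and exons 5 and 7 the ends. The circRNA of exons 3 to 5 spans 106482269 to 106490572 (8304 bp in the genome), that of exons 2 to 5 spans 106482269 to 106522007 (39739 bp), that of exons 3 to 7 spans 106460710 to 106490572 (29863 bp), and that of exons 2 to 7 spans 106460710 to 106522007 (61298 bp). Further along the gene, a pair of circRNAs started at exon 9. One ran to exon 13 (106385712 to 106425965, 40254 bp) and one to exon 11 (106400018 to 106425965, 25948 bp). The span of neither equalled that of an exon pair of the transcript Acss3-201, which has 11 exons. The spans of 4 members equalled those of exon pairs in both transcripts.

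The seventh member (106460710 to 106490539, 29830 bp) left from the end of exon 7 and entered exon 3 at a point 33 bases inside it. The sequences that the 7 junctions should have, by the annotated exons, are given to show which ends are shared. They are from the GENCODE M21 transcript Acss3-203 and not from reads. Each has 20 bases of the last exon in lower case and then 20 bases of the first exon in capitals.
exons 3 to 5: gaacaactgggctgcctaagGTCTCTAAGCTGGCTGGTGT
exons 2 to 5: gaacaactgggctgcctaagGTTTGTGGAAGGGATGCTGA
exons 3 to 7: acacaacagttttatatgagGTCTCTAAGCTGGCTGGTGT
exons 2 to 7: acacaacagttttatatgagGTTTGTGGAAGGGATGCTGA
exons 3 to 7, inner start: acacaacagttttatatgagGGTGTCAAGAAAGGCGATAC
exons 9 to 13: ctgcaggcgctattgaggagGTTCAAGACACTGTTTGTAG
exons 9 to 11: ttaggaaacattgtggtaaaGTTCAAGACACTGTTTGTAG

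The inner start in exon 3 directly follows the bases AG, the pair that ends an intron at a usual acceptor site. The start of exon 3 shows this, with that AG in capitals.
start of exon 3: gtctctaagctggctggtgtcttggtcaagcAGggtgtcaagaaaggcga
Exon 3 holds 15 AG pairs in 189 bases, so a match of these letters is only a description. This member had 2 and 3 reads at day 8.

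**Figure D1:**
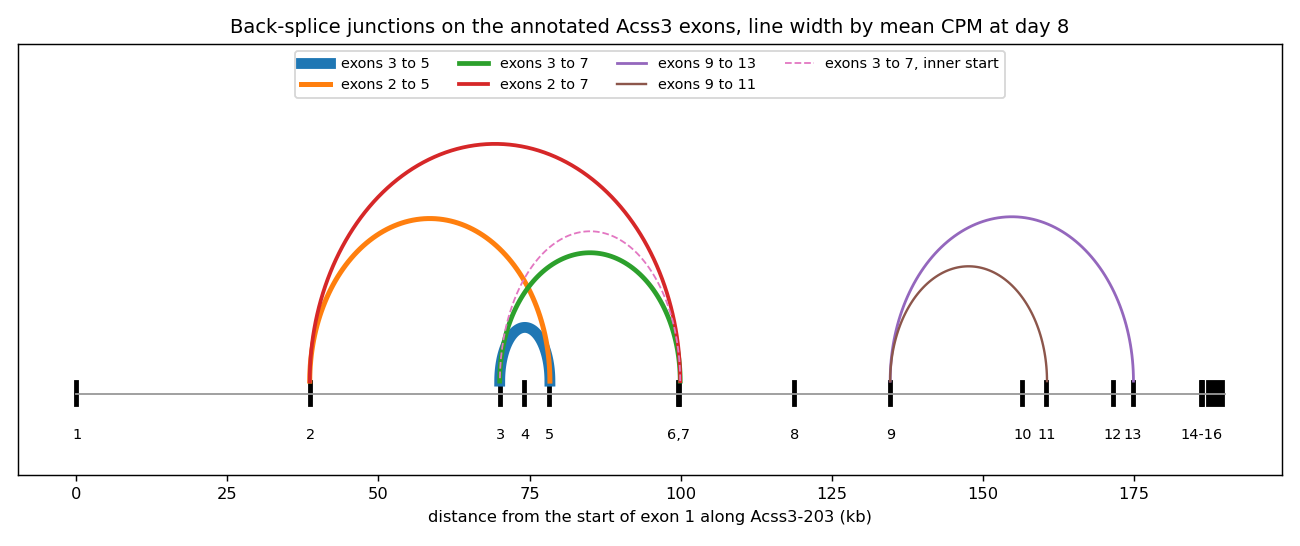
Back-splice junctions of the 7 members drawn as arcs on the exons of Acss3-203 (black boxes with exon numbers, widened to be visible), against the distance from the start of exon 1 in kb; line width grows with the mean CPM at day 8. The thickest arc joins exon 5 to exon 3, and the members from exon 9 form a separate pair.

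If every annotated exon between the ends is kept, the loops would be 465 nt (exons 3 to 5), 610 nt (2 to 5), 642 nt (3 to 7), 787 nt (2 to 7), 609 nt (3 to 7, inner start), 469 nt (9 to 13) and 264 nt (9 to 11). The reads that define a table entry cross the junction alone, so the inner exons were not measured. All of these exons are coding in Acss3-203. The lengths of 4 of the 7 are multiples of 3, those of exons 3 to 5, 3 to 7, 9 to 11 and the inner start.

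Back-splice ends lay next to long introns. Acss3-203 has 15 introns, and 7 of them directly flank an end that a member used, namely introns 1, 2, 5, 7, 8, 11 and 13. Those 7 are among the 8 longest, with lengths of 10906 to 38336 nt and a median of 18838 nt. The exception is intron 9, which has 21762 nt and flanks no end. The other 7 introns without an end measured 84 to 4010 nt. This was noticed after the ends were known and is given with no test.

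**Figure D2:**
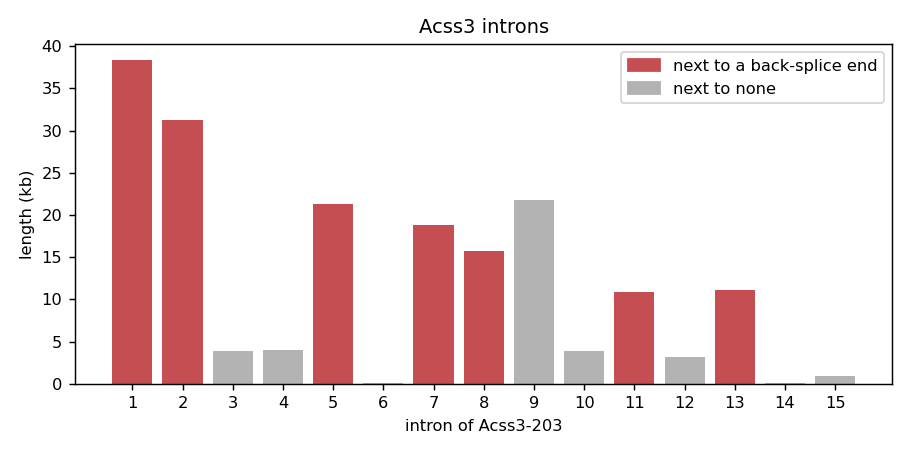
Length in kb of each of the 15 introns of Acss3-203 (GRCm38 annotation), with introns next to a back-splice end of a member in red and the others in grey. Red bars are 7 of the 8 longest, and intron 9 is the long grey one.

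All 7 members share an end with another circRNA, as do 48.9% of the 3869 circRNAs. For 4 of the 7, those of the 2 starts and 2 ends, both ends were shared with different partners, against 9.36% of all circRNAs. None of the 7 has an identifier in circBase, a public catalogue of circRNAs, against 63.1% with one among all circRNAs. Of the 41 circRNAs with a day 8 mean at least that of the exon 3 to 5 circRNA, itself included, 37 have an identifier. The share with an identifier was lower among circRNAs listed at 0 in both day 0 libraries (43.0% of 675) and among those listed at 0 at days 0 and 4 (35.4% of 212).

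The summed Acss3 circRNAs were listed at 0 at day 0, were low at day 4 and were high at day 8, although single members differed widely in level. The 7 summed to 0 CPM in both day 0 libraries. They reached 590 and 396 CPM in the day 4 libraries, from 27 and 16 reads. At day 8 they stood at 5635 and 4548 CPM, from 230 and 192 reads. The days did not overlap. The day 8 mean of 5091 ± 768 CPM was 10.3 times the day 4 mean of 493 ± 137 CPM (SD, n = 2 each), with an SD of 3.27 carried over from both days. No fold is given against day 0. In such samples, a change in the number of cells that make an RNA and a change in the RNA per cell cannot be told apart.

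The circRNA of exons 3 to 5 was the most abundant member. It was listed at 0 in both day 0 libraries, had 306 and 173 CPM at day 4 (14 and 7 reads), and had 2891 and 1966 CPM at day 8 (118 and 83 reads). Its day 8 mean of 2428 ± 654 CPM was 10.1 times the day 4 mean of 240 ± 93.9 CPM (SD, n = 2 each). Both day 8 libraries lay far above both day 4 libraries, although they differed from each other by more than the whole day 4 level. By day 8 mean it ranked 41 of the 3869 circRNAs, against rank 931 at day 4.

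The circRNA of exons 3 to 7 was the other one seen in both day 4 libraries. It was listed at 0 at day 0, had 241 and 173 CPM at day 4 (11 and 7 reads), and had 735 and 853 CPM at day 8 (30 and 36 reads). Its day 8 mean of 794 ± 83.3 CPM was 3.84 times the day 4 mean of 207 ± 47.5 CPM (SD, n = 2 each). At day 4 it was close to the exon 3 to 5 circRNA, and at day 8 it lay below it in both libraries.

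Both circRNAs that start at exon 2 were near the detection limit until day 8. That of exons 2 to 5 had 0 and 49.5 CPM at day 4 (0 and 2 reads) and 955 and 758 CPM at day 8 (39 and 32 reads). That of exons 2 to 7 had 43.7 and 0 CPM at day 4 (2 and 0 reads) and 588 and 474 CPM at day 8 (24 and 20 reads). Each was thus listed in 1 of the 2 day 4 libraries, at 2 reads, the smallest number above 0 in any library, and neither was listed at day 0. The order at day 8 was exons 3 to 5 first, and then exons 2 to 5 (857 ± 140 CPM), 3 to 7 (794 ± 83.3 CPM) and 2 to 7 (531 ± 80.7 CPM). Exons 2 to 5 and 3 to 7 differed by less than their spread, since their order turned between the libraries.

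The remaining 3 members were listed at day 8 alone. That of exons 9 to 13 had 269 and 261 CPM (11 reads in each library), and that of exons 9 to 11 had 147 and 166 CPM (6 and 7 reads). The inner-start form of exons 3 to 7 had 49.0 and 71.1 CPM. By day 8 mean these 3 ranked 815, 1409 and 2740 of the 3869 circRNAs, and those of exons 9 to 11 and of the inner start had means of 156 and 60.0 CPM, below the median of 162 CPM over all values above 0. Of all circRNAs, 5.48% were listed at 0 in the 4 libraries of days 0 and 4 and above 0 in both day 8 libraries. No entry above 0 had fewer than 2 reads. At the share of Acss3 reads that it held at day 8, the exon 9 to 13 circRNA would have had 1.42 and 0.841 reads in the day 4 libraries, and that of exons 9 to 11 would have had 0.844 and 0.500. Whether they were made at day 4 was therefore not detectable at this depth.

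**Figure D3:**
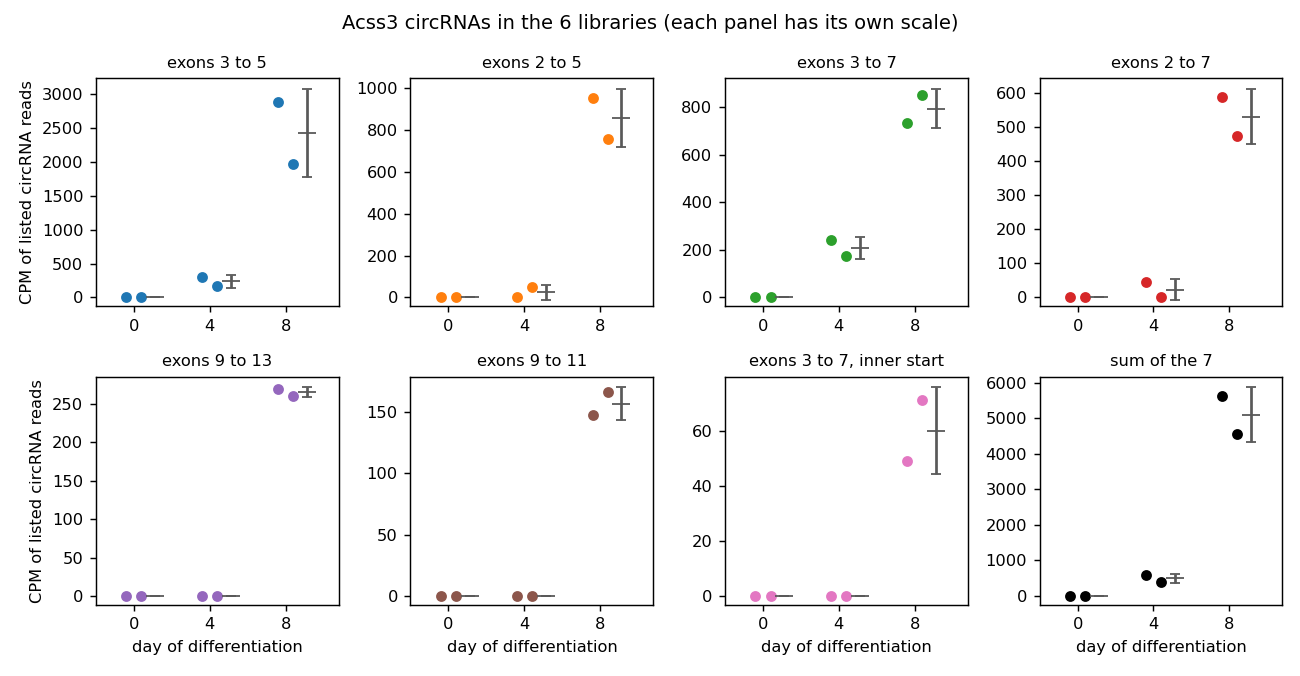
CPM of each member and of their sum in the 6 libraries, by day of differentiation; dots are libraries, and the grey mark beside them is the mean with its SD (n = 2). Each panel has its own scale. All values at day 0 are 0, and every day 8 value lies above every day 4 value of the same circRNA.

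Both day 8 libraries lay above both day 0 libraries for 7 of 7 members, as they did for 26.2% of all circRNAs. Against day 4 the same held for 7 of 7 members and for 24.6% of all circRNAs. Day 4 lay above day 0 in this way for 2 members, those of exons 3 to 5 and 3 to 7, and for 21.7% of all. All 7 were listed at 0 at day 0 and above 0 in both day 8 libraries, a pattern of 12% of all circRNAs. These contrasts share libraries with one another and with the choice of the gene, so nothing is read from the members' counts.

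The same limit holds for the limma calls (adjusted p under 0.05 over all 3869 circRNAs). For day 8 against day 0, 7 members were called higher, with 7.52% of all circRNAs called higher. With a pseudocount of 1, 5 members were called higher, with 268 of all 3869 circRNAs called higher. Leaving out any library of day 0 or day 8 gave fewer members, and fewer of all circRNAs were then called higher too. Such a fit leaves 1 library in a day, so the members' counts are not given for it. For day 8 against day 4, 6 members were called higher (6.05% of all). With a pseudocount of 1 it was 3, with 219 of all 3869 circRNAs called higher. Leaving out any library gave fewer members, and fewer of all circRNAs except without replicate 1 of day 0. On day 4 against day 0, 2 members were called higher (3.95% of all). With a pseudocount of 1 it was also 2, with 164 of all 3869 circRNAs called higher. Leaving out any library gave fewer members or none, and fewer of all circRNAs.

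The gene was chosen because several members were listed at 0 at day 0 and were high at day 8. The ranks below repeat that choice and are only a description. Among the 675 circRNAs listed at 0 in both day 0 libraries, the exon 3 to 5 circRNA had the highest day 8 mean. The next one had 1470 CPM. The circRNAs of exons 2 to 5, 3 to 7 and 2 to 7 ranked 8, 9 and 14 in that group. Those of exons 9 to 13 and 9 to 11 ranked 34 and 93, and the inner-start form ranked 422. Joined with overlapping circRNAs of the same strand, the 5 members between exons 2 and 7 formed 1 of 2511 loci and ranked 22 by day 8 mean, and the pair from exon 9 formed another and ranked 524. Of the 363 loci at 0 in both day 0 libraries, they ranked 1 and 13.

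**Figure D4:**
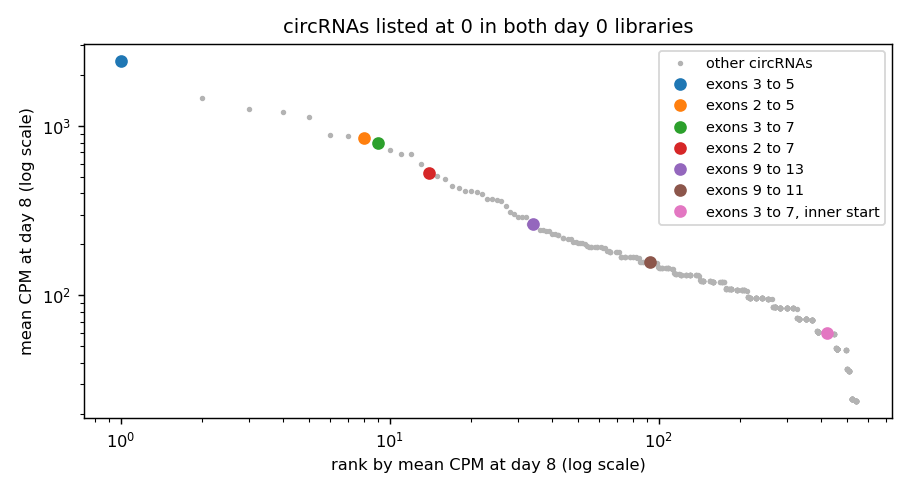
Mean CPM at day 8 against rank for the circRNAs that were listed at 0 in both day 0 libraries (both axes on log scales); members of Acss3 are coloured and the others grey. The exon 3 to 5 circRNA is at rank 1 with 2428 CPM, and 3 further members lie between ranks 8 and 14. The gene was chosen for this pattern, so the ranks are only a description.

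The gene was chosen by the levels of its circRNAs and not by their shares, but shares are not independent of levels. Only the circRNAs of exons 3 to 5 and 3 to 7 were above 0 in both day 4 libraries. The other members entered the table through day 8 alone, a selection that favours smaller shares of these 2 at day 8. The exon 3 to 5 circRNA held 51.3% (95% exact binomial interval 44.6 to 57.9%) and 43.2% (36.1 to 50.6%) of the Acss3 reads in the day 8 libraries, against 51.9% (31.9 to 71.3%) and 43.8% (19.8 to 70.1%) in the day 4 libraries. Its share thus overlapped between the days. The exon 3 to 7 circRNA held 13.0% (8.98 to 18.1%) and 18.8% (13.5 to 25%) at day 8, against 40.7% (22.4 to 61.2%) and 43.8% (19.8 to 70.1%) at day 4. Its shares did not overlap between the days, though the intervals of day 8 replicate 2 with both day 4 libraries do. Intervals cover counting error alone, and the reads carry no molecular identifiers.

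The circRNAs that start at exon 2 together held a larger share at day 8 than at day 4, a difference that the selection of the table favours. Neither was above 0 in both libraries of day 0 or of day 4, so they entered the table through day 8 alone. They made up 27.4% (21.7 to 33.6%) and 27.1% (20.9 to 34.0%) of the Acss3 reads at day 8, against 7.41% (0.910 to 24.3%) and 12.5% (1.55 to 38.3%) at day 4. At the mean day 8 share, 7.35 and 4.36 reads would have been expected in the day 4 libraries, where 2 and 2 were listed. With 1 unlisted read for the form at 0 in each library, the day 4 shares would be 10.7% and 17.6%. Neither calculation allows for the selection of the table, so neither adds weight to the difference. The intervals of both day 4 libraries also overlap those of both day 8 libraries. An exact two-sided permutation test of 2 against 2 libraries cannot go below p = 0.33, so these shares have no test.

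The circRNAs of exons 3 to 5 and 3 to 7 share their start and were above the listing limit in all 4 libraries of days 8 and 4. A comparison of this pair, chosen after its values were seen, is free of unlisted reads. Their read ratio was 3.93 and 2.31 in the day 8 libraries, against 1.27 and 1.0 in the day 4 libraries. The 2 days did not overlap. With reads pooled by day it was 3.05 at day 8 (201 to 66 reads) and 1.17 at day 4 (21 to 18 reads), values that are given as a description with no test, since the pair was chosen for this difference.

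**Figure D5:**
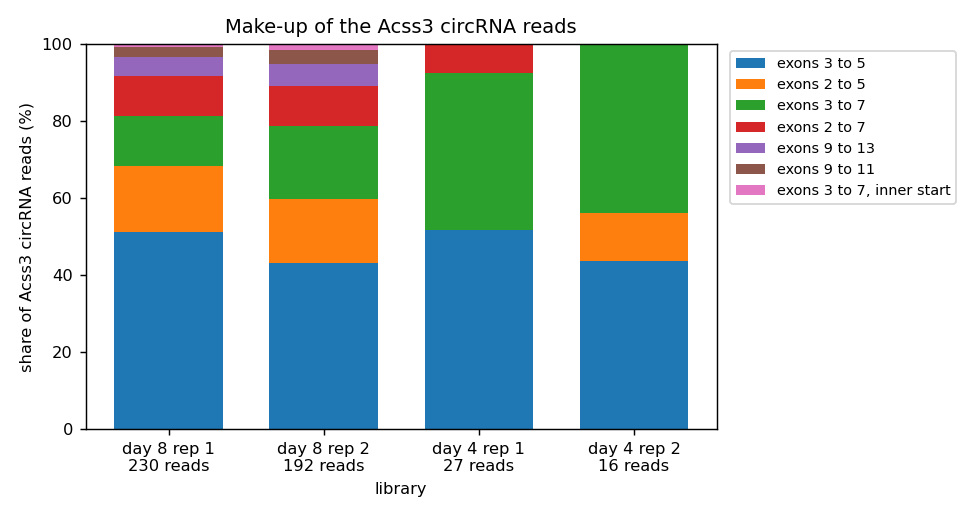
Share of the Acss3 circRNA reads held by each member (stacked, in %) in the libraries of day 8 and day 4, with the number of reads under each bar. The exon 3 to 7 circRNA takes 13.0% and 18.8% at day 8, against 40.7% and 43.8% at day 4.

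Within day 8 the choice of start could be set against the choice of end. Of the reads that left exon 5, 75.2% in replicate 1 and 72.2% in replicate 2 entered the usual start of exon 3 and the rest entered exon 2. Of those that left exon 7, leaving out the inner start, 55.6% and 64.3% entered exon 3. The odds ratio between start and end was 2.41 (95% interval 1.20 to 4.85) in replicate 1 and 1.44 (0.683 to 3.00) in replicate 2. It lay above 1 in both, but the interval of replicate 2 includes 1. These intervals cover counting error alone, and the comparison was added after the data were seen.

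Some other circRNAs were correlated with the Acss3 sum over the 6 libraries. Likeness was taken as Pearson's r on log2(CPM + 43.7) over the 6 libraries, among 1995 circRNAs outside the gene whose highest day mean was above 162 CPM, and it is a description over libraries that share their day. Of these, 19 had r over 0.95. The measure takes no account of the size of a change. The 5 most alike had r of 0.989 to 0.997. First came a circRNA with no circBase identifier on chromosome 16 (70401979 to 70441564, plus strand). It was listed at 0 on day 0, with 57.6 ± 11.4 CPM by day 4 and 229 ± 22.5 CPM by day 8 (SD, n = 2). The second, mmu_circ_0001822 on chromosome 9 (83882383 to 83906226, plus strand), was present from the outset, with 792 ± 93.4, 2450 ± 1.75 and 5618 ± 474 CPM at days 0, 4 and 8.

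The other 3 were mmu_circ_0003641 on chromosome 12 (101685070 to 101733650, minus strand), a circRNA with no circBase identifier on chromosome 6 (129130651 to 129134331, plus strand) and mmu_circ_0001017 on chromosome 2 (48725809 to 48728993, plus strand). Their day 8 means were 253 ± 23.1, 1792 ± 179 and 7088 ± 577 CPM, against day 0 means of 119 ± 3.57, 345 ± 60.7 and 3648 ± 91.1 CPM. Of these 5, 4 were above 0 at day 0, where every Acss3 circRNA was listed at 0.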

How the data were processed

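circRNAs were measured by RNA sequencing in 6 libraries. The table deposited by the authors gives CPM, and each column sums to 1000000 over its 3869 rows. FastQC 0.11.9, HISAT2 2.2.0 and mm9 are named in the submitters' processing notes; for the circRNA caller, the sources used here give no name. Columns were tied to samples by the day and replicate digits in their names. Starts count from 0 in the file and from 1 here. Reads were inferred as CPM divided by the step between values of a library, and 100% of values came out whole within 1e-06 of a read. No count model was run on them.

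One limma 3.58.1 fit (R 4.3.3, trend option) covered the 3869 circRNAs and all 6 libraries, on log2(TMM-scaled CPM + 43.7), with Benjamini-Hochberg adjustment; 43.7 is the smallest CPM above 0, and TMM factors came from the inferred reads. The procedure was tested on simulated data with changes set at day 8, for day 8 against day 0 alone. P-values measure the spread between these libraries, which may be technical. Levels are deposited CPM. Intervals were computed with scipy 1.17.1.

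The members and lists were chosen with earlier results of these data known. Named were all members, the 5 circRNAs most like their sum, and the nearest neighbours. Host genes of related enzymes were not analysed, since no mm9 annotation was used here. Alternatives were other scalings, a pseudocount of 1, a filter of 10 reads in 2 libraries, fits of 4 libraries, a replicate block and leaving out each library.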

Additional observations from a re-analysis of the deposited data

How the results depend on the processing

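After TMM scaling the mean CPM of each member and of their sum stayed within 1 SD of the values given, except for the exon 9 to 13 circRNA, whose day 8 mean was 274 CPM, against 265 ± 6.30 CPM. The day 8 to day 4 ratio of the sum stayed within its SD under TMM and median-of-ratios scaling. Scaling cannot change a share within a library, and with 2 libraries a day a mean without either one is the other library's value, so neither says anything about stability. Over all circRNAs, limma called 480 (day 8 against day 0), 316 (day 4 against day 0) and 367 (day 8 against day 4), higher and lower together. Under a filter of 10 reads in 2 or more libraries, 89, 50 and 14 of 1368 were called, of which 60, 34 and 10 were higher on the later day. The 5 members that passed gave 5, 1 and 2 calls, all higher. They passed through their day 8 reads, which favours calls of day 8 as higher, so nothing is read from these counts. Fewer circRNAs were tested under this filter. Fitting days 4 and 0 alone called 37, with no member among them, although 871 were at an unadjusted p under 0.05; the cause was not tested. With the replicate number as a block 453, 304 and 351 were called, of which 268, 142 and 222 of 3869 were higher. The members called higher were then 7, 1 and 5. Libraries with the same number did not deviate together over all circRNAs (correlations of -0.0150 to -0.00586 between days). Counting error in circRNAs with few reads would weaken such correlations, so whether the numbers pair the samples could not be decided. Without each library in turn, fewer circRNAs were called than with all 6, except for day 8 against day 4 without replicate 1 of day 0. By Spearman's rho, 8 circRNAs were tied at 1 with the Acss3 sum, and 1 of the 5 named was among them. The comparison of the exon 3 to 5 and 3 to 7 circRNAs and the odds ratios were added after the data were seen. Acss3 shares rest on 422 reads at day 8, against 43 at day 4.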
